A study of Homo sapiens with 6 samples.

Results

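The 42 genes described here encode the subunits and initiation factors of RNA polymerase I and the nucleolar proteins that turn its transcript into ribosomal subunits. They were taken from a table of 27420 genes by a fixed list of symbols, and all 42 were found, each listed once. RNA was sequenced from 6 libraries of A673 and SKNMC, established cell lines of Ewing sarcoma, a tumour of bone and soft tissue driven by a fusion of EWSR1 with an ETS factor. Both lines were grown in DMEM with 10% FBS and treated for 6 h with THZ1 at 50 nM (low dose) or 200 nM (high dose) or with DMSO as vehicle, and 1 library was made for each line and condition. THZ1 is a covalent inhibitor of CDK7, the kinase of TFIIH that phosphorylates RNA polymerase II. The comparison asks which transcripts of this pathway were lost at each dose.

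Each condition has 1 library, so the values of a line have no replicate error, and no test was run. A fit over both lines with the line as a block would have taken the lines as replicates of each other. Levels are FPKM, fragments counted per length of transcript and per size of the library. FPKM is a share of the library, so the total RNA of a cell does not enter it, and fewer cells of a type and less RNA per cell cannot be told apart. Changes are log2 ratios of FPKM with 1 added, against the DMSO library of the same line, and "fell" is used only for a ratio of at least 2-fold. All 42 genes were above 10 FPKM with DMSO in both lines, the lowest being TAF1A at 10.3 FPKM in SKNMC, so none was lost to a filter on low values. How many reads each library held is unknown. By the ratio most often seen between low values, the THZ1 libraries had 88.9% to 96.6% of the depth of their DMSO library, a rough estimate to which 1.78% to 2.60% of the low values contributed. All 8 Ewing sarcoma markers examined were above 1 FPKM in all 6 libraries, and CD99 stood at 313 to 763 FPKM. Of 7 listed markers of other cells, PTPRC stood at 7.90 to 13.1 FPKM in SKNMC and at no more than 0.0291 FPKM in A673, the other 6 were below 1 FPKM in every library and CD3E was listed at 0 in all, and the part of PTPRC in these results was not tested.

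Ribosome production begins in the nucleolus, where RNA polymerase I transcribes the long precursor of the ribosomal RNAs with the help of UBTF, RRN3 and the SL1 complex. Small nucleolar RNPs (snoRNPs) of the box C/D and box H/ACA classes modify this precursor, and successive sets of processing factors cut and fold it into the small and the large subunit. RNA polymerase I lacks the C-terminal repeats that CDK7 phosphorylates on RNA polymerase II, but the messenger RNAs of all these proteins are made by RNA polymerase II. The pathway is highly active in growing tumour cells, and MYC is a known activator of many of its genes. Ribosomal RNA and snoRNAs themselves were not analysed here.

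Most of the 42 transcripts were lower following treatment with THZ1, and the size of the change differed between the roles of the proteins. Compared with DMSO, 36 and 39 of the 42 were lower in A673 and 35 and 38 in SKNMC at 50 nM and 200 nM, beside 66.3% and 67.1% of all genes above 10 FPKM in A673 and 70.0% and 80.4% in SKNMC. The counts were 31 and 30 in A673 and 27 and 32 in SKNMC when the libraries were scaled to the 75th percentile of active genes. Under that scaling the median log2 ratio of all genes above 10 FPKM was 0.048 and 0.035 in A673 and 0.027 and 0.006 in SKNMC. Scaling to the ribosomal protein genes gave 40 and 42 in A673 and 41 and 42 in SKNMC. The medians of all genes above 10 FPKM were then -0.43 and -0.71, and -0.61 and -1.06. The share of all genes that were lower was not computed under either scaling. As deposited, 35 were lower in all 4 THZ1 libraries, and only FBL and NHP2 were higher in all 4. Their direction turned in all 4 libraries when the libraries were scaled to the ribosomal protein genes. The share of all genes lower or higher in all 4 was not computed, so these joint counts have no background. At 50 nM, 9 of 42 fell at least 2-fold in A673, beside 15.9% of all genes above 1 FPKM and 14.5% of all genes above 10 FPKM with DMSO in that line. In SKNMC 5 of 42 fell at 50 nM (11.9%), a share close to the background of 15.8% and 13.8% at the same levels. At 200 nM, 14 fell in A673 (33.3% of the members) beside backgrounds of 25.3% and 24.5%, and 23 fell in SKNMC (54.8%) beside 27.3% and 27.6%. Scaling to the 75th percentile gave 5 and 13 genes that fell in A673 (beside 9.62% and 16.1% of all genes above 10 FPKM) and 2 and 8 in SKNMC (beside 8.57% and 12.8%). Scaling to the ribosomal protein genes gave 14 and 28 in A673 (beside 20.8% and 36.3%) and 13 and 34 in SKNMC (beside 26.0% and 53.8%). None of the 42 rose at least 2-fold at either dose, which is also rare among all genes above 10 FPKM, at 0.210% and 0.0751% in A673 and 0.314% and 0.200% in SKNMC at 50 nM and 200 nM.

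The median log2 ratio of the 42 genes was -0.46 in A673 and -0.40 in SKNMC at 50 nM, against -0.20 and -0.25 for all genes above 10 FPKM. At 200 nM the medians of the 42 were -0.80 and -1.02, against -0.32 and -0.53. The median of the 42 minus that of all genes above 10 FPKM was -0.26 and -0.15 at 50 nM and -0.48 and -0.49 at 200 nM in A673 and SKNMC. Counted over both lines, 4 genes fell in each line at 50 nM (GNL3, NIP7, PPAN and RRS1, beside 9.50% of all genes above 10 FPKM in both) and 13 fell in each line at 200 nM (beside 19.0%). In all, 24 of the 42 fell in at least 1 of the 4 comparisons and 18 in none, beside 33.8% of all genes above 10 FPKM in both that fell in at least 1.

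**Figure D1:**
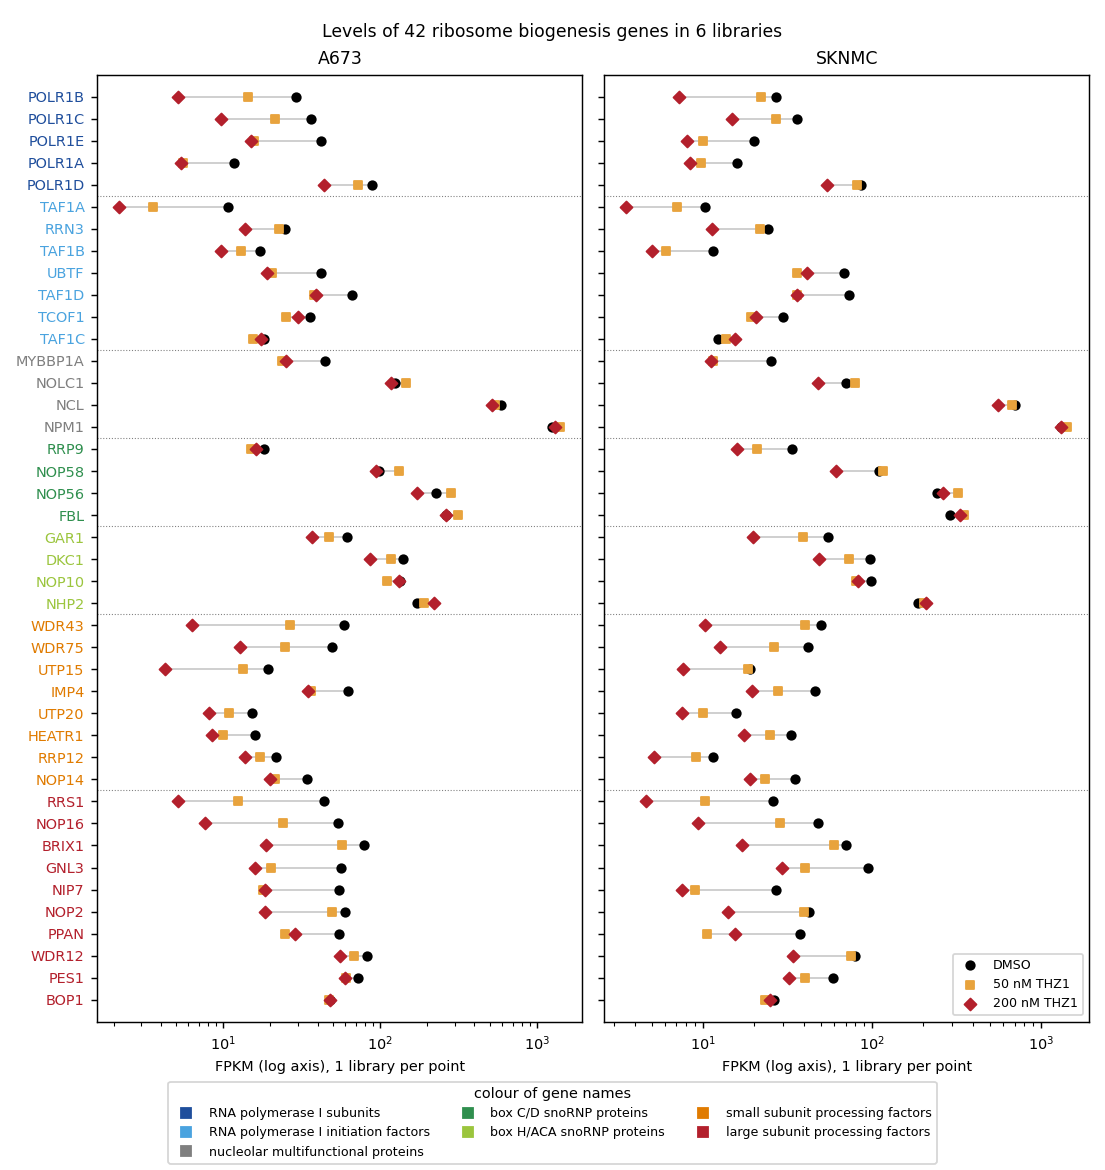
FPKM of each of the 42 genes (log axis) in A673 and SKNMC, with 1 point per library for DMSO, 50 nM and 200 nM THZ1 and gene names coloured by role. The 200 nM points of WDR43, RRS1 and NOP16 lie far to the left of their DMSO points in both lines, while those of NPM1, FBL and NHP2 lie close to them.

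WDR43 and NOP16 fell the most at 200 nM, together with RRS1, and FBL and NHP2 were lower in no THZ1 library as deposited. By the mean log2 ratio over both lines at 200 nM, TAF1C (0.13) stood between NHP2 (0.27) and FBL (0.10). The promoters of WDR43, NOP16, FBL and NHP2 are shown, from 250 bases before to 30 bases after the start of transcription. They let the reader compare genes that fell far with genes that were not lower as deposited. The sequences are from RefSeq on GRCh38.p14, in 5′ to 3′ direction of the gene, and capitals mark the E-box CACGTG, the motif bound by MYC and its relatives. WDR43 lies on the plus strand (chr2:28894417-28894696), and NOP16 (chr5:176388569-176388848), FBL (chr19:39846350-39846629) and NHP2 (chr5:178153856-178154135) lie on the minus strand.
WDR43: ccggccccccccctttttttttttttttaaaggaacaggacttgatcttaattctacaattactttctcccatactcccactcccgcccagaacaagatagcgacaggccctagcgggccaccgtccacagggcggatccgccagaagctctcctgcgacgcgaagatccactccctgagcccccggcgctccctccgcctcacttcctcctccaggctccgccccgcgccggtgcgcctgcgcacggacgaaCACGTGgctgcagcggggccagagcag
NOP16: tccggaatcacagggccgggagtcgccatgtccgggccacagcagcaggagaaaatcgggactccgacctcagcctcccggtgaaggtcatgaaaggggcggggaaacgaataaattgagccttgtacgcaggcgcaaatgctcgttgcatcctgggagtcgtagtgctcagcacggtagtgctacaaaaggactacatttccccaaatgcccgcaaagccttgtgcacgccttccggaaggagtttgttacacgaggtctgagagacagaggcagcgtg
FBL: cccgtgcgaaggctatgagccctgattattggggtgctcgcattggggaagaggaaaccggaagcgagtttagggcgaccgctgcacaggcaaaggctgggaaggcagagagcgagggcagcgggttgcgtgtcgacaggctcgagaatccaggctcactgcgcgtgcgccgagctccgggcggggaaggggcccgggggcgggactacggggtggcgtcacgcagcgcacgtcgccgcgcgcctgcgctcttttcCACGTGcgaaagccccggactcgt
NHP2: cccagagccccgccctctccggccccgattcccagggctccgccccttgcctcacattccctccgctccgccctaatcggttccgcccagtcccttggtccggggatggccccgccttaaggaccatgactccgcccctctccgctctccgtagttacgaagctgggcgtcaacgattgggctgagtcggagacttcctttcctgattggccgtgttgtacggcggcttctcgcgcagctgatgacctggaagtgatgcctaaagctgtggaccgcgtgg

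WDR43 and FBL both carried the E-box, starting at base 3 after the start of transcription in WDR43 and at base 6 in FBL. WDR43 fell at 200 nM in both lines, and FBL fell in no comparison. The other 2 promoters carried none in this window, nor did that of TAF1C, which is not shown. Promoters of 35 of the 42 genes were matched by symbol, and BOP1, RRS1, TCOF1, RRP12, NOP58, NOLC1 and POLR1E had none in the table used. CACGTG, which reads the same on both strands, was found in 8 of the 35 (22.9%), in 11.2% of 4720 promoters of genes above 10 FPKM in both lines and in 7.14% of all 27305 promoters of this length. The 8 were FBL, IMP4, NOP10, NOP14, PES1, RRP9, UTP20 and WDR43. These 8 had a median log2 ratio of -0.36 and -0.52 in A673 and -0.56 and -0.92 in SKNMC at 50 nM and 200 nM, against -0.49 and -0.90, and -0.39 and -1.12, for the 27 without the motif. The 8 were thus the lower of the groups in SKNMC at 50 nM and the higher in the other comparisons. The ETS motif CCGGAAGT, searched on both strands, was found in 5 of 35 (14.3%), beside 11.4% and 4.34%. The 5 were GAR1, NOP10, POLR1C, TAF1A and TAF1C. The GGAA pair GGAAGGAA was found in 1 of 35 (2.86%), the NOP10 promoter, beside 3.11% and 3.36%. These motifs were searched as exact letters. A match is a description of the window and not of binding.

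The 5 subunits of RNA polymerase I were lower in all 4 THZ1 libraries, except that POLR1D at 50 nM in SKNMC turned higher under scaling to the 75th percentile. Summed over the 5, their FPKM came to 61.9% of DMSO in A673 and 81.3% in SKNMC at 50 nM, and to 38.1% and 50.0% at 200 nM. Among them 1 fell at 50 nM in A673 and none in SKNMC, beside 14.5% and 13.8% of all genes above 10 FPKM. At 200 nM 3 of the 5 fell in each line, beside 24.5% in A673 and 27.6% in SKNMC. POLR1B, the second-largest subunit (chr2:113299491-113334635, hg19, plus strand), stood at 29.0, 14.4 and 5.13 FPKM in A673 with DMSO, 50 nM and 200 nM, and at 27.0, 22.1 and 7.20 FPKM in SKNMC. Its level dropped at each dose in both lines, and its log2 ratio at 200 nM was -2.29 in A673 and -1.77 in SKNMC.

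POLR1C, which RNA polymerase III also contains, stood at 36.1, 21.3 and 9.67 FPKM in A673 and at 36.2, 27.3 and 14.9 FPKM in SKNMC. POLR1E, a subunit of the peripheral dimer needed for initiation, stood at 42.1, 15.8 and 15.0 FPKM in A673 and at 20.1, 10.1 and 8.10 FPKM in SKNMC. POLR1C was lower again at 200 nM than at 50 nM, by log2 ratios of -1.06 in A673 and -0.83 in SKNMC, whereas those of POLR1E were -0.07 and -0.28. POLR1D, the partner of POLR1C in both polymerases, stood at 89.4, 72.0 and 44.2 FPKM in A673 and at 86.3, 81.6 and 54.2 FPKM in SKNMC, and was the highest of the 5 in every library. The catalytic subunit POLR1A was at 46.0% of DMSO at 200 nM in A673 and at 52.8% in SKNMC. On the scale with 1 added, POLR1A and POLR1D at 200 nM in A673 lay just outside the 2-fold threshold.

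The initiation factors were lower in sum by a similar amount at both doses, at 64.0% and 61.0% of DMSO in A673 and at 61.2% and 58.2% in SKNMC for 50 nM and 200 nM. TAF1A, a TBP-associated subunit of SL1 (chr1:222731243-222763275, hg19, minus strand), stood at 10.7, 3.56 and 2.17 FPKM in A673 and at 10.3, 7.07 and 3.54 FPKM in SKNMC. It was the lowest of the 7 in log2 ratio at 200 nM in both lines, at -1.88 and -1.32. UBTF, which binds along the ribosomal DNA and keeps it open, stood at 41.9, 20.3 and 19.1 FPKM in A673 and at 68.4, 36.0 and 41.2 FPKM in SKNMC. Its level was about the same at both doses in each line, and it crossed the 2-fold threshold in A673 (log2 ratios -1.01 and -1.09) and stayed within it in SKNMC (-0.91 and -0.72).

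RRN3, which links the polymerase to SL1 and is regulated by growth signals, behaved in the opposite way to UBTF over dose. It stood at 24.9, 22.5 and 13.7 FPKM in A673 and at 24.3, 21.97 and 11.4 FPKM in SKNMC, so that most of its loss lay between 50 nM and 200 nM. TAF1B, another SL1 subunit, stood at 17.2, 13.0 and 9.72 FPKM in A673 and at 11.5, 6.09 and 5.02 FPKM in SKNMC. TAF1C, a further SL1 subunit, stood at 18.1, 15.5 and 17.3 FPKM in A673 and at 12.4, 13.7 and 15.6 FPKM in SKNMC. TAF1C was thus below its DMSO level in A673 and above it in SKNMC, but above it in all 4 libraries under scaling to the 75th percentile and below it in all 4 under scaling to the ribosomal protein genes. TAF1D was at 49.5% to 59.0% of DMSO in the 4 libraries. TCOF1, the treacle protein that supports RNA polymerase I transcription, was at 65.5% to 83.7%. Neither fell at least 2-fold in any comparison, although TAF1D in SKNMC lay just outside the threshold at both doses.

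The nucleolar multifunctional proteins included the most abundant transcripts of the set, and these differed little between libraries. NPM1, the nucleolar chaperone nucleophosmin, stood at 1252, 1413 and 1302 FPKM in A673 and at 1325, 1437 and 1324 FPKM in SKNMC. NCL, nucleolin, stood at 589, 545 and 517 FPKM in A673 and at 705, 678 and 561 FPKM in SKNMC. NPM1 was thus highest at 50 nM in both lines and NCL was lowest at 200 nM in both lines, each within 1.5-fold of DMSO, and both stood above DMSO in all 4 libraries under scaling to the 75th percentile and below it under scaling to the ribosomal protein genes. MYBBP1A, a nucleolar partner of MYB that takes part in precursor processing, stood at 44.4, 23.7 and 25.1 FPKM in A673 and at 25.5, 11.5 and 11.2 FPKM in SKNMC. It was the only gene of this group to cross 2-fold, in SKNMC, at both doses (log2 ratios -1.09 and -1.12), and its ratios in A673 were -0.88 and -0.80. NOLC1, a chaperone of snoRNPs, was at 118% and 94.8% of DMSO in A673 and at 113% and 68.2% in SKNMC.

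The proteins of the box C/D snoRNPs, which guide methylation of ribosomal RNA, were in sum higher than DMSO at 50 nM (122% in A673 and 120% in SKNMC) and at 90.1% and 100% of it at 200 nM, a sum in which FBL and NOP56 weigh most. FBL, fibrillarin, the methyltransferase of these particles, stood at 264, 313 and 265 FPKM in A673 and at 291, 352 and 334 FPKM in SKNMC. NOP56, a core protein, showed the same peak at 50 nM, at 125% of DMSO in A673 and 134% in SKNMC, as did the core protein NOP58 at 134% and 106%. At 200 nM NOP56 was at 75.9% and 110% of DMSO in A673 and SKNMC, and NOP58 at 95.1% and 56.1%. When the libraries were scaled to the ribosomal protein genes, the direction at 50 nM flipped for FBL in both lines (log2 ratios -0.01 and -0.10) and for NOP58 in SKNMC (-0.30), and was kept for NOP56 in both lines and for NOP58 in A673. RRP9, a protein specific to the U3 particle, stood at 18.2, 14.9 and 16.2 FPKM in A673 and at 33.9, 21.0 and 15.9 FPKM in SKNMC. It was the single gene of this group that fell, at 200 nM in SKNMC (log2 ratio -1.04) from a DMSO level higher than that of A673.

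The proteins of the box H/ACA snoRNPs, particles that guide pseudouridine formation, split into 2 pairs. GAR1 and DKC1 decreased with dose, and NOP10 and NHP2 stayed between 81.3% and 130% of DMSO. GAR1 stood at 61.6, 47.2 and 36.7 FPKM in A673 and at 55.5, 39.3 and 19.9 FPKM in SKNMC. DKC1, the pseudouridine synthase dyskerin, stood at 141, 117 and 86.4 FPKM in A673 and at 98.1, 73.7 and 48.5 FPKM in SKNMC. Both decreased with each dose in both lines and crossed 2-fold in SKNMC at 200 nM, GAR1 at a log2 ratio of -1.44 and DKC1 at -1.001, just inside the threshold. NHP2 (chr5:177576460-177580968, hg19, minus strand), an RNA-binding protein of the same particle, stood at 172, 190 and 222 FPKM in A673 and at 188, 204 and 211 FPKM in SKNMC. It was higher in each THZ1 library than with DMSO as deposited, and lower in each when scaled to the ribosomal protein genes. NOP10, the smallest protein of the particle, was at 81.3% to 99.4% of DMSO. GAR1 and NHP2 belong to the same 4-protein particle, and at 200 nM in SKNMC their levels were 35.8% and 112% of DMSO.

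The small subunit processing factors were lower in all 4 THZ1 libraries, 8 of 8, except that UTP15 at 50 nM in SKNMC turned higher under scaling to the 75th percentile, with a sum at 58.0% of DMSO in A673 and 71.2% in SKNMC at 50 nM and at 39.1% and 39.3% at 200 nM. WDR43 (chr2:29117508-29171088, hg19, plus strand), a component of the UTP-A complex that binds the nascent precursor, stood at 59.1, 26.6 and 6.31 FPKM in A673 and at 50.1, 40.1 and 10.3 FPKM in SKNMC. Its log2 ratios at 200 nM, -3.04 and -2.18, were the lowest in A673 and the third lowest in SKNMC of all 42 genes. At 50 nM it fell in A673 (-1.12) and not in SKNMC (-0.31).

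WDR75, a further UTP-A protein, stood at 49.2, 24.7 and 12.8 FPKM in A673 and at 41.8, 26.4 and 12.7 FPKM in SKNMC. UTP15, also of UTP-A, stood at 19.2, 13.4 and 4.26 FPKM in A673 and at 19.1, 18.5 and 7.61 FPKM in SKNMC. Both were at 22.1% to 39.7% of DMSO at 200 nM, and UTP15 in SKNMC was still at 96.7% at 50 nM. HEATR1, the largest UTP-A protein, was less reduced, at 53.5% and 52.7% of DMSO at 200 nM. IMP4, a partner of the U3 particle, stood at 62.1, 36.3 and 34.8 FPKM in A673 and at 46.4, 27.8 and 19.7 FPKM in SKNMC. RRP12, which assists the export of small subunit precursors, stood at 21.7, 17.1 and 13.7 FPKM in A673 and at 11.4, 9.15 and 5.16 FPKM in SKNMC. Both crossed 2-fold only in SKNMC at 200 nM. NOP14, which had the highest mean log2 ratio of the 8 over both lines at 200 nM, stood at 34.2, 21.4 and 19.8 FPKM in A673 and at 35.4, 23.2 and 19.1 FPKM in SKNMC. UTP20 was at 52.96% and 47.7% of DMSO at 200 nM, less than 2-fold lower on the scale with 1 added.

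Of the 10 large subunit processing factors, the largest of the roles, 5 and 6 fell in A673 and 4 and 8 in SKNMC at 50 nM and 200 nM, beside 14.5%, 24.5%, 13.8% and 27.6% of all genes above 10 FPKM. At 200 nM in A673 their share of 60% was also that of the RNA polymerase I subunits. RRS1, which helps to place the smallest ribosomal RNA in the large subunit, stood at 43.6, 12.5 and 5.17 FPKM in A673 and at 26.0, 10.3 and 4.61 FPKM in SKNMC. NOP16 (chr5:175810948-175815976, hg19, minus strand), a nucleolar assembly factor, stood at 53.6, 23.9 and 7.66 FPKM in A673 and at 47.8, 28.9 and 9.41 FPKM in SKNMC. Both genes dropped at each dose in each line and ended at 11.8% to 19.7% of DMSO. HIGD2A overlaps NOP16 on the opposite strand at 80.3 and 108 FPKM with DMSO, and whether the counting used strand is not given in the sources used here.

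BRIX1, an assembly factor with a Brix domain, stood at 79.3, 57.4 and 18.8 FPKM in A673 and at 70.9, 59.6 and 17.1 FPKM in SKNMC. NOP2, a nucleolar RNA cytosine methyltransferase, stood at 59.8, 49.6 and 18.6 FPKM in A673 and at 42.6, 39.5 and 14.2 FPKM in SKNMC. For both genes the 50 nM library was at 72.4% to 92.8% of DMSO, and the 200 nM library was at 23.7% to 33.2%.

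GNL3, the nucleolar GTPase nucleostemin, stood at 56.7, 20.1 and 15.9 FPKM in A673 and at 95.0, 40.5 and 29.3 FPKM in SKNMC. NIP7, a factor for precursor processing, stood at 54.8, 18.1 and 18.5 FPKM in A673 and at 27.3, 8.97 and 7.51 FPKM in SKNMC. PPAN, a further Brix domain protein, stood at 54.5, 24.9 and 28.8 FPKM in A673 and at 37.5, 10.6 and 15.6 FPKM in SKNMC. These 3 genes had reached most of their loss at 50 nM, and PPAN was higher at 200 nM than at 50 nM in both lines. PPAN overlaps P2RY11 on the same strand (18.3 FPKM in A673 and 3.32 FPKM in SKNMC with DMSO), so part of its reads may be shared.

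PES1, BOP1 and WDR12 form the PeBoW complex of large subunit maturation, and their levels moved apart. BOP1 stood at 47.8, 47.5 and 47.7 FPKM in A673 and at 26.6, 23.2 and 24.9 FPKM in SKNMC, and its log2 ratios at 200 nM were the highest of the 10. WDR12 stood at 82.4, 68.1 and 55.6 FPKM in A673 and at 79.4, 75.8 and 34.1 FPKM in SKNMC. WDR12 fell only in SKNMC at 200 nM (log2 ratio -1.20). PES1 was at 82.2% of DMSO in A673 and at 54.9% in SKNMC at 200 nM and did not reach 2-fold.

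**Figure D2:**
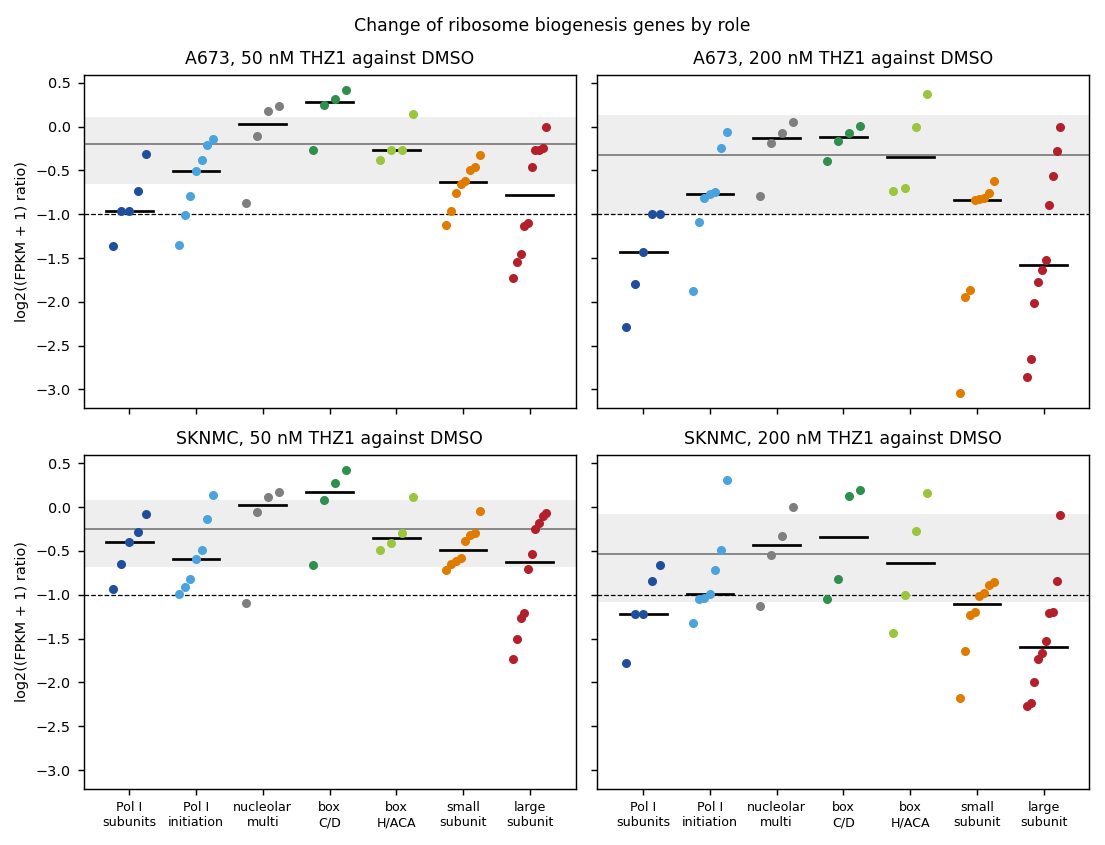
Log2 ratio of FPKM with 1 added against DMSO for each of the 42 genes, by role, in the 4 comparisons, with 1 point per gene, a bar at the median of each role, a dashed line at 2-fold lower, and a grey line and band for the median and middle quartiles of all genes above 10 FPKM. At 200 nM the bars of the RNA polymerase I subunits and initiation factors and of both processing groups lie below the grey line in both lines. The box H/ACA bar lies slightly below it, and the bars of the box C/D and the nucleolar multifunctional proteins lie above it.

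The libraries at 200 nM and at 50 nM were also compared directly. In A673, 8 of 42 genes were at least 2-fold lower at 200 nM than at 50 nM, beside 8.49% of all genes above 10 FPKM with DMSO, and in SKNMC 8 of 42 beside 9.73%. Lower to any degree were 32 of 42 in A673, beside 51.6% of all such genes, and 34 of 42 in SKNMC, beside 66.3%. The same 7 genes were 2-fold lower in both lines (BRIX1, NOP16, NOP2, POLR1B, RRS1, UTP15 and WDR43), beside 5.60% of all genes above 10 FPKM in both. POLR1C joined them in A673 and WDR12 in SKNMC. The strongest further decrease was that of WDR43, with log2 ratios of -1.92 and -1.86, followed by BRIX1 at -1.56 and -1.75. In contrast 7 genes were higher at 200 nM than at 50 nM in both lines (TAF1C, TAF1D, NOP10, NHP2, BOP1, PPAN and TCOF1). Their log2 ratios ran from 0.008 (BOP1) to 0.26 in A673 and from 0.00026 (TAF1D) to 0.52 in SKNMC. Of all genes above 10 FPKM with DMSO, 3219 of 6656 were higher in A673 and 2361 of 7010 in SKNMC. The share higher in both lines was not computed.

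The genes of the pathway followed different courses over dose. BRIX1, NOP2, UTP15 and RRN3 were at 69.6% to 96.7% of DMSO at 50 nM and dropped at 200 nM, whereas GNL3, NIP7, PPAN, POLR1E, UBTF and MYBBP1A were at 28.3% to 53.4% of DMSO at 50 nM and were at 72.3% to 147% of that level at 200 nM. These 10 genes were chosen after their values were seen. RRS1 and NOP16 showed both, a loss at 50 nM and a further one at 200 nM.

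**Figure D3:**
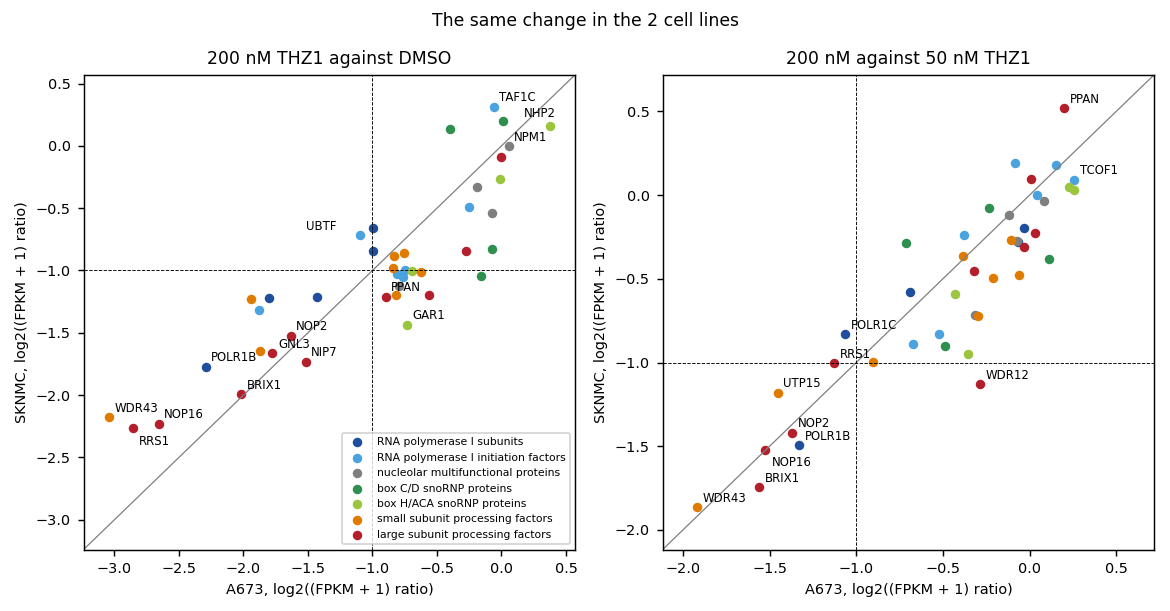
Log2 ratio of FPKM with 1 added in SKNMC against the same ratio in A673, for 200 nM against DMSO and for 200 nM against 50 nM, with 1 point per gene coloured by role, dashed lines at 2-fold lower and a grey line of equal change. WDR43, RRS1 and NOP16 lie lowest on the left, and the 7 genes that were 2-fold lower in both lines lie at the lower left on the right.

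The order of the genes was similar in the 2 lines, which share no library. Across the 42 genes, which are not independent replicates, the log2 ratios of A673 and SKNMC correlated with Pearson r = 0.81 and Spearman rho = 0.81 at 50 nM, 0.87 and 0.85 at 200 nM, and 0.90 and 0.86 for 200 nM against 50 nM. Over all 5987 genes above 10 FPKM in both lines Pearson r was 0.85, 0.84 and 0.83, so this likeness was not particular to the 42. The lines differed in how many genes passed 2-fold. At 200 nM 10 genes fell in SKNMC alone (DKC1, GAR1, IMP4, MYBBP1A, PPAN, RRN3, RRP12, RRP9, TAF1B and WDR12) and 1 in A673 alone (UBTF), beside 8.07% and 4.18% of all genes above 10 FPKM in both. At 50 nM 5 fell in A673 alone (NOP16, POLR1E, TAF1A, UBTF and WDR43) and 1 in SKNMC alone (MYBBP1A), beside 4.11% and 3.59%. Under scaling to the 75th percentile the order of the lines at 200 nM turned, with 13 genes that fell in A673 and 8 in SKNMC. These differences between lines carry no test. In SKNMC at 200 nM, TAF1B, RRP9, RRN3, RRP12 and DKC1 lay just inside the threshold, within 0.1 on the log2 scale, and TAF1D and UTP20 just outside it. With DMSO the 2 lines held the 42 transcripts at similar levels. Only POLR1E, higher in A673, and HEATR1, higher in SKNMC, were 2-fold apart, beside 9.52% of all genes above 10 FPKM in both.

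The change was also set against abundance. Of 8 genes above a mean of 100 FPKM with DMSO (NPM1, NCL, FBL, NOP56, NHP2, DKC1, NOP10 and NOP58), only DKC1 fell in any comparison, and 23 of the 34 others did. Of all genes above 10 FPKM in both lines, 7.19% of those above a mean of 100 FPKM and 37.9% of the rest fell in any comparison, so this contrast was not particular to the 42. To avoid setting a change against the same DMSO value, the change in each line was set against the DMSO level in the other line. Spearman's rho was 0.44 and 0.37 in A673 and 0.40 and 0.28 in SKNMC at 50 nM and 200 nM over the 42 genes, and 0.34, 0.39, 0.27 and 0.34 over all genes above 10 FPKM in both. Gene span, spliced length and number of exons showed rho between -0.11 and 0.09 with the change over the members. Over all genes above 10 FPKM in both, rho lay between -0.29 and 0.14. There, spliced length at 200 nM gave -0.29 in A673 and -0.15 in SKNMC. Of the 42 genes, 8 host snoRNA genes (TAF1D, NOP56, NOP58, NCL, GNL3, WDR43, DKC1 and PPAN), and their median log2 ratio was -0.53 and -0.72 in A673 and -0.36 and -0.998 in SKNMC at 50 nM and 200 nM, beside -0.46 and -0.81, and -0.44 and -1.04, for the other 34.

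**Figure D4:**
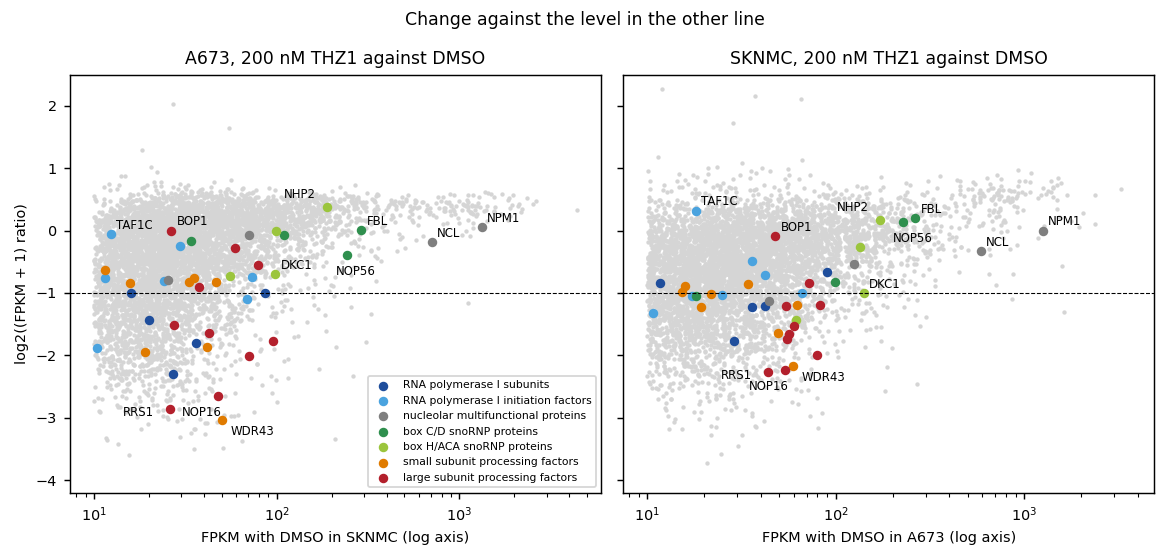
Log2 ratio of FPKM with 1 added at 200 nM against DMSO in each line, plotted against the DMSO level (FPKM, log axis) in the other line, for the 42 genes coloured by role and for all genes above 10 FPKM in both lines in grey. Of the 42 genes, those above 100 FPKM on the horizontal axis lie above the dashed line at 2-fold lower, apart from DKC1 on it in SKNMC, and WDR43, RRS1 and NOP16 lie at the lower end at 26.0 to 59.1 FPKM.

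Other genes of the pathway were counted from a list drawn up by role. Of 114 further ribosome biogenesis genes, 24 and 46 fell in A673 and 16 and 60 in SKNMC at 50 nM and 200 nM, and none rose. These are 21.1% and 40.4% in A673 and 14.0% and 52.6% in SKNMC, beside the 14.5%, 24.5%, 13.8% and 27.6% of all genes above 10 FPKM, so the share in SKNMC at 50 nM was close to the background. Of 41 small subunit factors among them, 24 in A673 and 31 in SKNMC fell at 200 nM (58.5% and 75.6%), and NGDN was the lowest of the 41 in both lines (log2 ratios -3.25 and -2.31). Of 54 other large subunit factors 17 and 25 fell at 200 nM (31.5% and 46.3%), with NIFK the lowest at -2.61 and -2.58. Of 9 snoRNP assembly factors only NUFIP1 fell at 200 nM (-1.80 and -1.72). The list also held 10 genes of the RNA polymerase I machinery, which divided by kind. With the high dose, ZNRD1, CD3EAP and TTF1 fell in both lines. TWISTNB fell only in A673 (log2 ratio -1.10, beside -0.79 in SKNMC). This made 4 genes for A673 and 3 for SKNMC. POLR2E, POLR2F, POLR2H, POLR2K and POLR2L, subunits that RNA polymerase II also contains, fell in no comparison, nor did BAZ2A. All 10 are part of the 114. The subunit gene ZNRD1 was the lowest of the 10 at both doses. Its levels were 20.1, 4.97 and 3.48 FPKM in A673 and 28.2, 8.71 and 5.52 FPKM in SKNMC.

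By the median of the 11 subunits specific to RNA polymerase III, most of the decrease was present at the low dose. The median log2 ratio was -1.12 and -1.40 in A673 and -0.94 and -1.24 in SKNMC at 50 nM and 200 nM. Single genes differed, as CRCP was at -0.33 and -0.78 in A673 and at -0.62 and -1.30 in SKNMC. POLR3B was at -0.52 and -1.48 in SKNMC, and POLR3GL was above DMSO in A673 at 200 nM (0.36). At 50 nM 7 fell in A673 and 5 in SKNMC (63.6% and 45.5%, beside 14.5% and 13.8% of all genes above 10 FPKM). At 200 nM 7 and 9 fell (63.6% and 81.8%, beside 24.5% and 27.6%). None was 2-fold lower at 200 nM than at 50 nM in either line. Of 7 subunits specific to RNA polymerase II, POLR2D fell in 3 of the 4 comparisons, and POLR2A, the largest subunit, rose at 50 nM (log2 ratios 1.60 and 1.69). None of 79 cytosolic ribosomal protein genes fell, and their median log2 ratio was 0.21 and 0.37 in A673 and 0.37 and 0.60 in SKNMC. As deposited, the transcripts of the finished ribosome's proteins and of most factors that assemble it thus stood on opposite sides of their DMSO level. MYC stood at 101, 90.9 and 54.5 FPKM in A673 and at 198, 167 and 76.8 FPKM in SKNMC, with most of its decrease between 50 nM and 200 nM, and its part in the members' decrease was not tested.

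**Figure D5:**
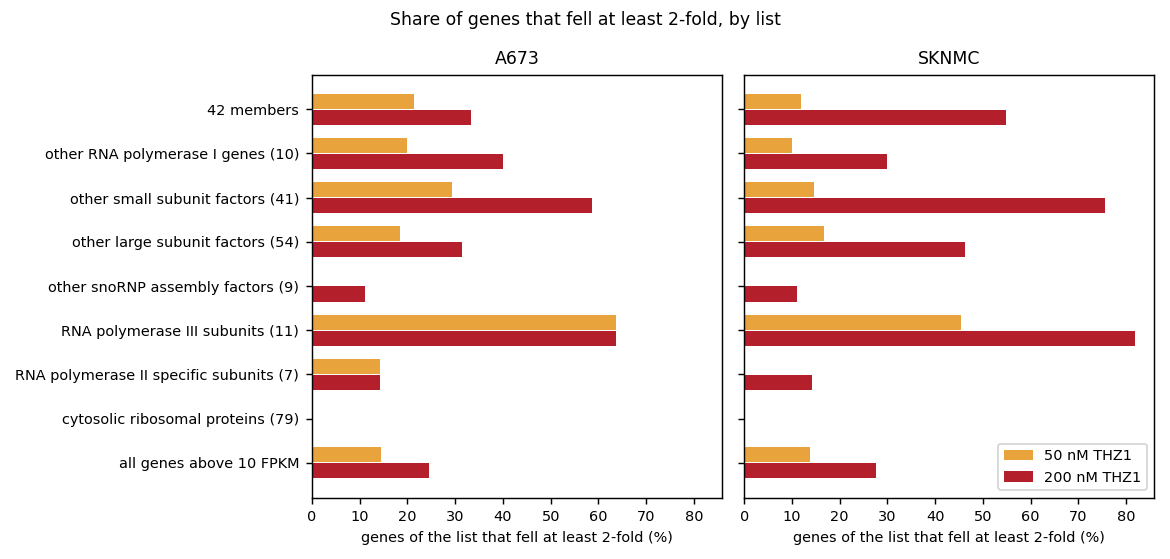
Percent of the genes of each list that fell at least 2-fold with 50 nM and 200 nM THZ1 in A673 and SKNMC, with the number of genes in brackets and all genes above 10 FPKM with DMSO in the last row. The bars of the 42 members reach 33.3% in A673 and 54.8% in SKNMC at 200 nM, and the ribosomal protein genes have no bar.

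The ribosomal protein genes took a larger share of the listed FPKM with THZ1, from 13.8% with DMSO to 18.04% at 200 nM in A673 and from 19.2% to 30.05% in SKNMC. In A673 the 42 genes together held a share of 0.966% with DMSO and 0.777% at 200 nM. In SKNMC this share was 0.956% and 0.773%. In sum they were at 80.9% and 79.0% of DMSO at 200 nM, a smaller decrease than that of most single genes, with NPM1 holding the largest share of the sum.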

How the data were processed

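RNA of A673 and SKNMC cells was measured in 6 libraries, 1 per line and condition, grouped by the sample labels, which spell the second line in more than 1 way. Although its title calls the values averages, the labels list 1 sample per condition, so each column of the table was taken as 1 unreplicated library. The authors sequenced 100-bp paired-end TruSeq libraries, aligned them to hg19 with STAR and Ensembl 75, and estimated FPKM with StringTie, while the submitters' processing notes name Cufflinks beside STAR. The deposited FPKM values were used as given. The authors also deposited 4 columns of log2 fold changes against DMSO, which were not used.

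Rows were matched by symbol. Ratios were log2 of FPKM with 1 added, and genes above 1 FPKM with DMSO in the line were compared at a threshold of 2-fold, as descriptions without a test. The rule for the members uses no measured value, but the members and lists were chosen with earlier results of these data known. All members were accounted for, and values in every library were given for members changed at least 2-fold in any comparison with DMSO, for the lowest and highest of each role at 200 nM over both lines, and for the 3 most abundant with DMSO. Of other lists, counts and their lowest or highest genes were given. Gene spans are those of the deposited table, and gene models came from GENCODE 44 on GRCh37 for 41 members. Promoters came from RefSeq on GRCh38.p14. Alternatives were a pseudocount of 0.1, 3 other scalings, no filter, a filter of 10 FPKM and a 1.5-fold threshold. FPKM holds no read counts, so no counting interval could be given. The log2 ratio and the 2-fold call were tested on A673 DMSO values multiplied by known ratios. The other steps were not tested in this way. Python 3.11.15, pandas 2.3.3, numpy 2.4.6, scipy 1.17.1 and matplotlib 3.10.9 were used.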

Additional observations from a re-analysis of the deposited data

Results flagged for a closer look

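TAF1C, a subunit of the SL1 initiation complex, was lower than DMSO in both THZ1 libraries of A673 and higher in both of SKNMC, and this opposite direction drew attention to it. Its log2 ratio in A673 was -0.213 with the low and -0.0618 with the high dose, and in SKNMC it was 0.138 with the low and 0.315 with the high dose. With 1 library per condition this difference was not tested. All 4 values lie well within 2-fold. All 4 were positive under scaling to the 75th percentile (0.03, 0.30, 0.41 and 0.85) and all 4 negative under scaling to the ribosomal protein genes (-0.45, -0.44, -0.21 and -0.21), in the same order of comparisons.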

How the results depend on the processing

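The number of members that fell at least 2-fold and their median log2 ratio were recomputed under each alternative, in the order A673 50 nM, A673 200 nM, SKNMC 50 nM and SKNMC 200 nM. As deposited the counts were 9, 14, 5 and 23, beside 14.5%, 24.5%, 13.8% and 27.6% of all genes above 10 FPKM. Scaling to the 75th percentile of active genes gave 5, 13, 2 and 8, and scaling to the median of 79 ribosomal protein genes gave 14, 28, 13 and 34. The 1.5-fold threshold gave 18, 28, 17 and 32, beside 27.7%, 38.0%, 29.2% and 47.4% of all genes above 10 FPKM. The pseudocount of 0.1 gave 11, 16, 6 and 25, beside 15.8%, 26.2%, 15.5% and 29.7% of all genes above 10 FPKM. A common sum gave 8, 16, 5 and 21, beside 13.9%, 24.8%, 13.5% and 26.4%. The medians were -0.48, -0.83, -0.41 and -1.09 with the pseudocount of 0.1, -0.44, -0.81, -0.39 and -0.99 with a common sum, -0.22, -0.44, -0.12 and -0.50 with the 75th percentile, and -0.69, -1.19, -0.77 and -1.54 with the ribosomal protein genes. The 75th percentile moved the median of all genes above 1 FPKM by 0.22, 0.32, 0.25 and 0.48, and the ribosomal protein genes moved it by -0.21, -0.33, -0.31 and -0.45. Under these 2 scalings the share of all genes above 10 FPKM that fell was 9.62%, 16.1%, 8.57% and 12.8%, and 20.8%, 36.3%, 26.0% and 53.8%. Both filters on low values left every member's value as it was, because no member was below 10 FPKM with DMSO.

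No fit with the cell line as a block was run, since it would take the lines as replicates of each other, and with 1 library per condition no replicate was left out. The absolute depth is unknown, so low values such as TAF1A at 200 nM carry no error. The sources used here describe no added standard that would tie a scaling to the RNA of a cell. Genes above 10 FPKM with DMSO in either line overlap POLR1C, RRN3, TAF1D, NOP16, NHP2, BRIX1, HEATR1, PPAN, GNL3, NIP7 and IMP4.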
